A study of Mus musculus with 105 samples.

Results

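Embryonic stem cells grown with inhibitors and Lif are held in the naive state of pluripotency, and they leave it when both are withdrawn. A small group of regulators is known to drive that departure, and 6 of them, Tcf7l1, Zfp281, Foxp1, Rbpj, Tfe3 and Flcn, were followed here. They were taken by gene symbol from a list of known regulators, drawn up with earlier results of these data in view. All 6 had a row among the 52016 genes of the bulk tables and among the 34120 genes of the single-cell table, and all 6 passed the filter on low counts in both bulk tables.

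The samples were female mouse embryonic stem cells from the line TX1072, an F1 hybrid between the strains C57BL/6 (B6) and Cast/EiJ (Cast), harvested on day 0 in 2i/Lif medium and on days 1, 2, 3 and 4 after its withdrawal. The data comprised TX1072 single cells, TX1072 bulk RNA, and bulk RNA of 2 deletion lines made from TX1072. TXdXicB6 lacks the X-inactivation centre on the B6 X chromosome and inactivates the Cast X, and TXdXicCast lacks it on the Cast X and inactivates the B6 X. The parental TX1072 carries rtTA in Rosa26 and, on the B6 allele, Xist under a promoter that responds to doxycycline. The centre that TXdXicB6 lacks includes that Xist gene. Each line is 1 clone, so that a difference between lines cannot be told apart from a difference between clones. Bulk RNA was sequenced in 3 replicates per line and day, 45 libraries in all, with 19827011 to 39628784 counts per TX1072 library, 20246434 to 49962859 per TXdXicB6 library and 16906263 to 57920260 per TXdXicCast library. The single cells came from 1 culture per day, and 277, 325, 341, 257 and 272 cells were retained on days 0 to 4 out of 400 capture sites per day, with a median of 132847 unique molecular identifiers (UMIs) per cell.

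The regulators act through separate routes. Tcf7l1, also called Tcf3, is a repressor of the Tcf/Lef family that holds down naive genes unless beta-catenin displaces it, which is what the GSK3 inhibitor in 2i brings about. Zfp281 is a zinc finger factor that works with chromatin modifiers, Rbpj is the DNA-binding partner through which Notch receptors act and a repressor in their absence, and Foxp1 is a forkhead factor whose alternatively spliced form in stem cells favours pluripotency. Tfe3 is a basic helix-loop-helix factor of the MiT/TFE family that supports naive genes while it is in the nucleus. Folliculin, the product of Flcn, works with Fnip proteins and Rag GTPases on the lysosome to keep Tfe3 in the cytoplasm. RNA levels report neither the location of Tfe3 nor the splice form of Foxp1.

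In the mouse genome build GRCm38 (mm10), Tcf7l1 lies on chromosome 6 from 72626378 to 72789254 on the minus strand, Zfp281 on chromosome 1 from 136624901 to 136630053 on the plus strand, and Foxp1 on chromosome 6 from 98925338 to 99522721 on the minus strand. Rbpj spans 53466152 to 53657362 on chromosome 5 (plus strand), Flcn 59791408 to 59810016 on chromosome 11 (minus strand) and Tfe3 7762560 to 7775202 on the X chromosome (plus strand). Tfe3 is thus the only X-linked gene of the 6, and 43 of the positions at which B6 and Cast differ lie in its exons. Antisense Gm15401 shares 4.56% of the exon bases of Tcf7l1, and Gm20696 shares 2.18% of those of Foxp1 on the same strand. Reads over those stretches may belong to either gene. Rbpj has 2 pseudogenes by name, and reads may be exchanged with them where the sequences are alike, which was not measured.

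The promoters of the 6 genes, 250 bases before to 50 after each RefSeq start (GRCm38.p6), were searched on both strands for one short motif for each class of factor in the group. CACGTG, the E-box read by MiT/TFE factors, occurs in 7.15% of all 32851 promoter windows of that length, CTTTGAT of Tcf/Lef factors in 3.73%, TGGGAA of Rbpj in 25.6%, GGGAGGG of Zfp281 in 22.0% and GTAAACA of forkhead factors in 3.65%. None of the 10 windows of the 6 genes held the letters of the E-box, the Tcf/Lef motif or the forkhead motif. Zfp281 and Rbpj promoters held a match to the motif of their own product. Flcn and Tfe3 promoters held a match to GGGAGGG, a Foxp1 promoter to TGGGAA and the Tcf7l1 promoter to both. These stretches are shown because they place the letters of one member's motif in the promoter of another or of the same gene. Capitals mark the motif, written 5′ to 3′ on the strand of the gene, and a match in the opposite direction appears as its reverse complement (CCCTCCC or TTCCCA). A match describes letters and not binding.
Zfp281, chr1:136624798-136624826, plus strand: caagtccccgcCCCTCCCacctagccccc
Rbpj, chr5:53590186-53590213, plus strand: atgaaaaaggcTGGGAAcccgcggcgag
Rbpj, chr5:53590270-53590297, plus strand: acgctcgcattTTCCCAggacccctcct
Tcf7l1, chr6:72789084-72789111, minus strand: gctgggcccgcTTCCCAcagagccacgc
Tfe3, chrX:7762411-7762439, plus strand: ggataatttgaGGGAGGGggtgtggctca
Flcn, chr11:59810266-59810289, minus strand: cctcctCCCTCCCaggacctgtcc

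The state of the cells was read from marker genes before the 6 regulators were compared. The summed level of 12 naive markers in the TX1072 bulk libraries went from 5150 to 5570 counts-per-million (CPM) on day 0 to 306 to 403 CPM on day 2. From day 2 to day 3, 3 of the 12 were called higher and 3 lower, when 26.7% of all genes tested were called. From day 3 to day 4, 3 were higher and 4 lower, when 27.7% were called. In the single cells, Nanog stood at 364 CPM on day 0, 24.9 CPM on day 2 and 90.5 CPM on day 4. Formative markers, 10 genes, together went from 285 to 359 CPM on day 0 to 3200 to 3320 CPM on day 2, and stood at 940 to 1090 CPM on day 4. On day 4, when 29.8% of all genes tested were called higher and 30.0% lower than on day 0, all 12 naive markers were lower, among them Klf4 (log2 -5.67) and Prdm14 (log2 -5.27), and 9 of the 10 formative markers higher, among them Fgf5 (log2 9.99) and Etv4 (log2 5.70). Pou5f1 and Sox2, the factors shared by all pluripotent states, summed to 1270 to 1620 CPM on day 0 and 585 to 626 CPM on day 4. On day 4 all 6 endoderm and all 4 mesoderm genes tested were called higher than on day 0. Of 4 neural genes tested 3 were higher and 1 lower, and of 4 trophoblast genes 2 were higher and 1 lower. Some had been called higher before. On day 1, when 25.0% of all genes tested were higher and 21.9% lower than on day 0, 2 of 6 endoderm and 2 of 4 neural genes tested were higher and none lower, and 2 of 4 mesoderm and 2 of 4 trophoblast genes were higher and 1 of each lower. In the single cells the neural gene Pax6 was found in 4 of 277 cells on day 0, 39 of 325 on day 1, 66 of 341 on day 2, 42 of 257 on day 3 and 11 of 272 on day 4. Mesoderm markers summed to 12.7 to 16.6 CPM on day 0 and 147 to 335 CPM on day 4 with T as the most abundant, and endoderm markers to 3.75 to 6.24 and 36.2 to 55.8 CPM with Dab2 as the most abundant. Trophoblast markers summed to 9.42 to 21.6 CPM on day 0, when Hand1 was at 0, and to 63.4 to 67.1 CPM on day 4, mostly Krt7. Neural markers went from 33.7 to 61.4 CPM to 63.2 to 74.5 CPM (Tubb3), and fibroblast markers from 21.3 to 29.8 CPM, when Col3a1 was at 0, to 16.1 to 17.3 CPM (Thy1), although 3 of the 6 fibroblast genes tested were called higher and 2 lower, with a median log2 change of 0.93. Day-4 levels of TX1072 below therefore come from mixtures in which the summed mesoderm, endoderm, trophoblast and neural markers stood above day 0. In TXdXicB6, day 4 against day 0 gave 4 of 6 endoderm genes tested higher and 1 lower, and 2 of 4 mesoderm genes higher and none lower. Of 5 neural genes tested there, 2 were higher and 1 lower, and of 5 trophoblast genes 2 were higher and 2 lower. Over all genes tested, 59.3% were called in that comparison and 30.1% were higher. The part of the mixture in any day-4 change was not tested.

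On the first day 4 of the 6 regulators rose. Between day 0 and day 1 in TX1072 bulk RNA, Foxp1, Rbpj, Tfe3 and Zfp281 rose, and Tcf7l1 and Flcn did not pass the test. That is 4 of 6 called at an adjusted p of up to 0.05, all 4 higher, when 47.0% of the 18871 genes tested were called, 25.0% higher and 21.9% lower. The median log2 change of the 6 was 0.63, against 0.03 over all genes tested. In bulk RNA, more cells with a transcript and more transcript per cell cannot be told apart.

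**Figure D1:**
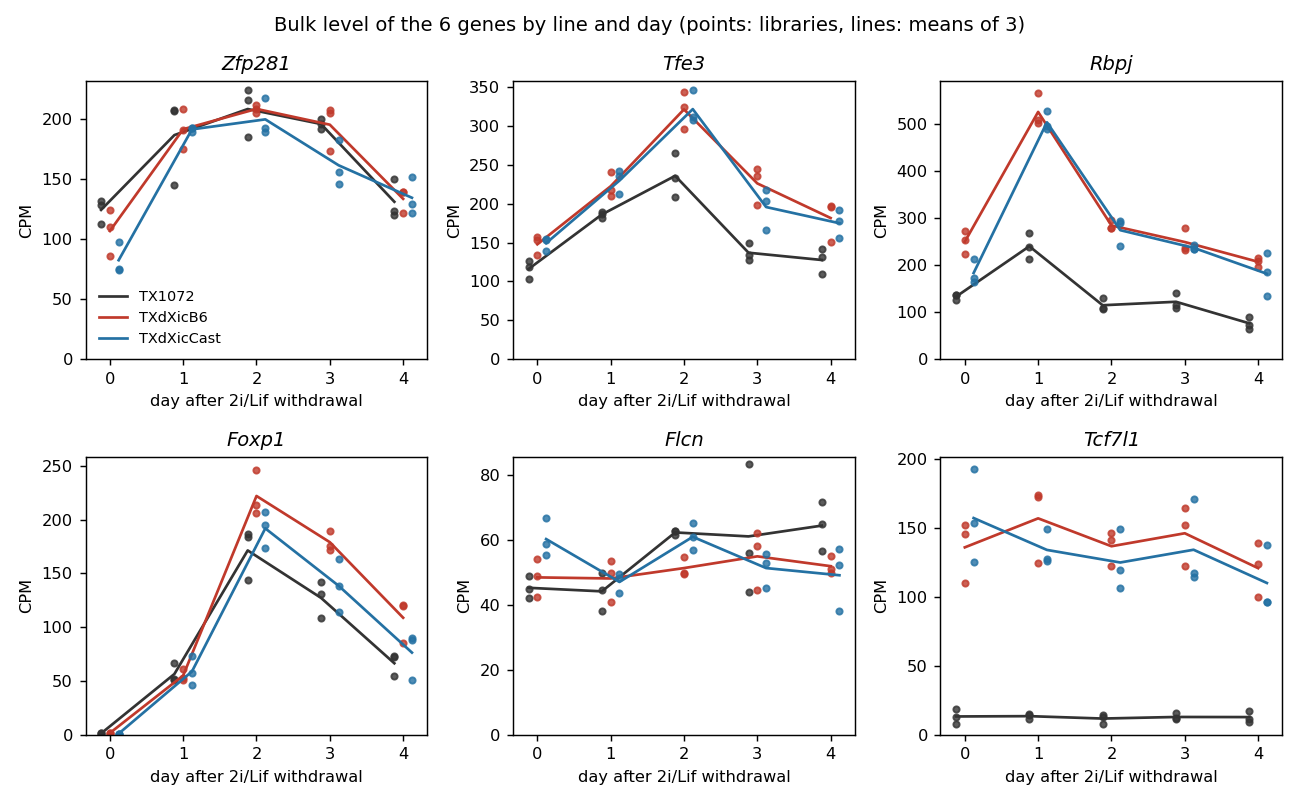
Level of each of the 6 genes (vertical axis, CPM) on days 0 to 4 (horizontal axis) in the 3 lines, with one point per library and lines through the means of 3. Foxp1 went from 1.09 to 1.36 CPM on day 0 to 144 to 186 CPM on day 2 in TX1072, Rbpj was highest on day 1, and Tcf7l1 lay at 8.09 to 18.5 CPM in TX1072 on all days. TX1072 and the deletion lines were prepared with different kits.

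Foxp1 was the gene of the group that moved most. In TX1072 it stood at 1.36, 1.09 and 1.26 CPM on day 0 (50, 29 and 28 reads), at 66.5, 50.9 and 52.2 CPM on day 1, at 184, 144 and 186 CPM on day 2, at 109, 142 and 131 CPM on day 3 and at 54.3, 72.2 and 73.0 CPM on day 4. No day-0 library came near any later one, and the day-2 libraries were all above those of every other day. The rise from day 0 to day 1 was 45.3-fold (log2 5.50 ± 0.20 SE, adjusted p = 6.99e-13), with a further 3.03-fold from day 1 to day 2 (adjusted p = 1.3e-07). From day 3 to day 4 the level fell to 0.522 of itself (log2 -0.94, adjusted p = 0.000136), which left it 53.4-fold above day 0 (adjusted p = 7.51e-14). The fall from day 2 to day 3, log2 -0.43 with an adjusted p of 0.0351, was lost when any of day 2 replicate 1 or 3 or day 3 replicate 1 or 3 was left out (adjusted p = 0.0684 to 0.164).

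The other forkhead P genes and the Mbnl splicing regulators, which shape exon choice in many transcripts, made up a list of 6, of which 5 could be tested. Its counts and those of the other lists below are read beside the 47.0% of all genes called on day 1 and the 59.8% called on day 4 against day 0. On day 4, 3 of the 5 were higher than on day 0 and none lower, with a median log2 change of 1.50 against -0.05 over all genes tested. Mbnl3 rose from 1.50 to 2.42 CPM on day 0 to 43.4 to 55.1 CPM on day 4 (log2 4.67 ± 0.19, adjusted p = 6.28e-13). Foxp2 was read at most once in a library on day 0 and reached 1.48 to 2.02 CPM on day 4.

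Rbpj, in contrast, was abundant from the start and its rise lasted 1 day. Its levels were 137, 126 and 137 CPM on day 0, 239, 213 and 269 CPM on day 1, 109, 106 and 129.6 CPM on day 2, 109, 141 and 116 CPM on day 3 and 65.2, 73.7 and 89.7 CPM on day 4. The 3 day-1 libraries were the highest of the 15 and the 3 day-4 libraries the lowest. Rbpj rose 1.81-fold from day 0 to day 1 (log2 0.85 ± 0.13, adjusted p = 4.07e-05), fell by 1.07 on the log2 scale from day 1 to day 2 (adjusted p = 5.1e-06), and on day 4 stood at 0.573 of its day-0 level (log2 -0.80, adjusted p = 4.69e-05). Its pseudogenes were counted separately, and the level of Rbpj-ps3 followed that of Rbpj with r = 0.973 across the 15 libraries. Reads of the 2 may be exchanged where their sequences are alike, which was not measured.

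Around Rbpj, the Notch pathway list of 24 genes had 22 that could be tested. On day 1, 8 were higher and 7 lower than on day 0, with a median log2 change of -0.16. Chosen after their values were seen, Hes1, Hey1 and Nrarp, direct targets of Notch signalling, fell on day 1 by 2.58, 2.35 and 2.47 on the log2 scale (adjusted p = 1.54e-09, 5.73e-05 and 1.28e-05). Of the other targets in the list, Dtx1 rose by 0.87 (adjusted p = 0.000139) and Hey2 gave log2 -0.49 (adjusted p = 0.485), and by day 4 Nrarp was above day 0 (log2 1.67, adjusted p = 6.25e-05). By day 4, 14 of the 22 were higher and 4 lower than on day 0, with a median of 0.63. Maml3, a coactivator that joins Notch and Rbpj on DNA, rose from 0.224 to 0.272 CPM on day 0 to 5.67 to 9.85 CPM on day 4 (log2 5.01, adjusted p = 1.74e-10), whereas its relative Maml2 fell by 2.47 (adjusted p = 1.29e-07). Dll3, a divergent ligand, rose by 4.06 (adjusted p = 1.39e-09). The receptor gene Notch4 fell from 17.8 to 31.7 CPM to 1.63 to 2.52 CPM (log2 -3.58, adjusted p = 2.64e-09).

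Zfp281 rose on day 1 and held until day 3. It measured 128, 112 and 132 CPM on day 0, 207, 145 and 208 CPM on day 1, 216, 185 and 224 CPM on day 2, 196, 199.8 and 192 CPM on day 3 and 124, 119.7 and 149.7 CPM on day 4. Every library of days 1 to 3 lay above every day-0 library, and the lowest of day 1, replicate 2, lay below the highest of day 4. The rise from day 0 to day 1 was 1.50-fold (log2 0.59 ± 0.13, adjusted p = 0.00149), and the fall from day 3 to day 4 was 0.58 on the log2 scale (adjusted p = 0.00365). Day 4 against day 0 gave log2 0.08 ± 0.13 (adjusted p = 0.646).

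Of the 16 chromatin partners and opposing factors listed with Zfp281, 4 were higher and 7 lower on day 4 than on day 0, with a median log2 change of -0.24. Tet2 and Tet1, which oxidise methylated cytosine, both fell. Tet2 went from 402 to 461 CPM on day 0 to 177 to 201 CPM on day 1 and 12.3 to 18.3 CPM on day 4 (log2 -4.76 ± 0.18, adjusted p = 1.46e-13). Tet1 did not pass the test on day 1 (log2 0.11, adjusted p = 0.694) and was lower on day 4 (log2 -1.28, adjusted p = 3.08e-05). Rbbp7 and Mta1, subunits of the NuRD histone deacetylase complex, rose by 0.72 and 0.46 on the log2 scale over the 4 days (adjusted p = 9.42e-06 and 0.00476), although Mta1 had first fallen on day 1 (log2 -0.67, adjusted p = 0.000304).

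Tfe3 rose, too, and its relatives did the opposite. Its levels were 103, 126 and 119 CPM on day 0, 187, 189 and 182 CPM on day 1, 233, 209 and 266 CPM on day 2, 149, 135 and 127 CPM on day 3 and 109, 142 and 132 CPM on day 4. The day-1 and day-2 libraries were all above those of days 0, 3 and 4, and day 4 overlapped with both day 0 and day 3. Tfe3 rose 1.61-fold from day 0 to day 1 (log2 0.68 ± 0.12, adjusted p = 0.000119) and fell by 0.79 on the log2 scale from day 2 to day 3 (adjusted p = 8.97e-05). The further step from day 1 to day 2 (log2 0.34, adjusted p = 0.028) was lost without replicate 3 of day 1 (adjusted p = 0.064) or of day 2 (adjusted p = 0.103). Day 4 did not differ from day 0 by the test (log2 0.14 ± 0.12, adjusted p = 0.33).

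The MiT/TFE relatives Tfeb and Mitf both fell within the first day, and Tfec was too low to be tested. Tfeb stood at 103 to 141 CPM on day 0, 7.57 to 10.8 CPM on day 1 and 9.48 to 13.8 CPM on day 4, and its log2 change on day 1 was -3.83 ± 0.18 (adjusted p = 1.79e-11). Mitf went from 45.4 to 51.1 CPM on day 0 to 3.93 to 5.22 CPM on day 1 (log2 -3.36 ± 0.17, adjusted p = 3.93e-11) and 1.41 to 2.02 CPM on day 4. Per length of exon, as CPM divided by the exon length in kilobases (RPKM), Tfeb was above Tfe3 on day 0 with 18.2 to 24.8 against a mean of 12.5 for Tfe3, and on day 2 Tfe3 had a mean of 25.5 RPKM against 1.11 to 1.55 for Tfeb and 0.435 to 0.536 for Mitf. Tfeb and Mitf fell on day 1 in the deletion lines as well, with a median log2 change of -3.34 in TXdXicB6 and -3.63 in TXdXicCast.

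Most lysosomal genes of the kind that MiT/TFE factors are known to activate were lower on day 1. Of 21 that could be tested, 17 were called when 47.0% of all genes were, 14 lower and 3 higher than on day 0, with a median log2 change of -0.51. On day 4, 14 were called when 59.8% of all genes were, 9 higher and 5 lower than on day 0, with a median of 0.25. Gpnmb, a lysosomal glycoprotein gene used as a readout of these factors, dropped from 31.3 to 37.1 CPM on day 0 to 1.57 to 1.94 CPM on day 1 (log2 -4.31 ± 0.18, adjusted p = 4.37e-12) and stayed at 1.25 to 1.64 CPM on day 4. The protease gene Ctsb fell by 1.77 on the log2 scale on day 1 (adjusted p = 1.02e-09). Neu1, a sialidase gene, fell by 0.90 on day 1 (adjusted p = 0.00136) and was 0.92 above day 0 on day 4 (adjusted p = 0.000591), and the autophagy gene Gabarapl1 fell by 0.44 and then stood 1.63 above day 0 (adjusted p = 0.0136 and 7.54e-09). On day 1 the deletion lines gave 11 lower and 3 higher (TXdXicB6) and 9 lower and 4 higher (TXdXicCast), 14 and 13 of 21 called when 45.7 and 58.8% of all genes were.

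Flcn, whose product restrains Tfe3, was higher late in the course in TX1072 (adjusted p = 0.0122 for any change over the 5 days). It stood at 44.9, 48.8 and 42.0 CPM on day 0, 38.1, 49.9 and 44.5 CPM on day 1, 61.4, 62.8 and 62.8 CPM on day 2, 83.4, 44.0 and 55.9 CPM on day 3 and 71.8, 64.9 and 56.6 CPM on day 4. Days 0 and 1 overlapped, days 2 and 4 were above both, and day 3 overlapped with all of them. On day 4 Flcn was 1.42-fold above day 0 (log2 0.51 ± 0.17, adjusted p = 0.0159), a call lost without day 0 replicate 3 (adjusted p = 0.0512) or day 4 replicate 1 (adjusted p = 0.0668). The step from day 1 to day 2 (log2 0.50, adjusted p = 0.0278) was lost without day 1 replicate 1 or 3 (adjusted p = 0.0987 and 0.0573). In the deletion lines Flcn was not called from day 1 to day 4 (log2 0.11 in TXdXicB6 and 0.06 in TXdXicCast, adjusted p = 0.512 and 0.712). Day 4 against day 0 in TXdXicB6 gave log2 0.10 (adjusted p = 0.546).

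The lysosomal relay in which folliculin works had called genes in both directions. Among 18 genes for Fnip proteins, Rag GTPases, the Ragulator complex and mTORC1 with its inhibitors, 7 were called on day 1, 4 higher and 3 lower (median log2 change 0.10), when 47.0% of all genes were, and 7 on day 4, 6 higher and 1 lower (median 0.02), when 59.8% were. Rragb and Rragc, which encode Rag GTPases, were higher on day 4 by 0.89 and 0.80 on the log2 scale (adjusted p = 6.71e-05 and 4.11e-05), and Lamtor2, a Ragulator subunit, was lower by 0.89 (log2 -0.89, adjusted p = 2.7e-06). The partners of folliculin, chosen after their values were seen, moved in opposite directions on day 1 in TX1072, where Fnip1 fell (log2 -0.75 ± 0.18, adjusted p = 0.00178) and Fnip2 rose (log2 0.42 ± 0.14, adjusted p = 0.016). In TXdXicB6 Fnip1 fell by 0.51 (adjusted p = 0.00625) and Fnip2 gave log2 0.13 (adjusted p = 0.244), and in TXdXicCast neither passed (log2 -0.21 and 0.05, adjusted p = 0.233 and 0.625).

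Tcf7l1 was not called in TX1072 in any comparison of days. Its libraries read 8.09, 13.2 and 18.5 CPM on day 0, 11.6, 14.1 and 14.8 CPM on day 1, 12.6, 8.15 and 14.6 CPM on day 2, 11.1, 15.5 and 12.1 CPM on day 3 and 9.35, 17.3 and 11.8 CPM on day 4. All 5 days overlapped, and the lowest and the highest library were both from day 0. Day 1 against day 0 gave log2 0.03 ± 0.27 (adjusted p = 0.933), and the test for any change over the 5 days gave an adjusted p of 0.961 when it called 79.0% of all genes and 5 of the 6 regulators. Its standard error was the largest of the 6, at 0.27 on the log2 scale. The strand setting of the counting is not given in the sources used here, so that reads of the antisense gene over its exons cannot be told apart from its own.

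Genes around it were mostly lower on day 1. Of 17 genes for Tcf/Lef factors, the beta-catenin destruction complex, corepressors and known targets, 14 were called on day 1, 12 lower and 2 higher (median log2 change -0.51), when 47.0% of all genes were, and 10 on day 4, 5 lower and 5 higher (median -0.10), when 59.8% were. Lef1, an activating relative of Tcf7l1, rose from 4.80 to 6.92 CPM on day 0 to 48.8 to 53.1 CPM on day 1 and 60.4 to 101.3 CPM on day 2 (day 1 against day 0, log2 3.08 ± 0.19, adjusted p = 3.54e-10). It stood at 9.38 to 12.1 CPM on day 4, still above day 0 (log2 0.91, adjusted p = 0.000334). Cdx1, a beta-catenin target, fell from 34.2 to 62.2 CPM on day 0 to 0.843 to 1.46 CPM on day 1 (log2 -5.28, adjusted p = 1.4e-10) and stood at 1.18 to 1.67 CPM on day 4. Nkd1, an inhibitor of Wnt signalling and itself a target, fell by 1.18 on day 1 and was 0.92 above day 0 on day 4 (adjusted p = 0.000522 and 0.00136), and the corepressor gene Tle3 was lower on both days (log2 -0.52 and -0.54, adjusted p = 0.0195 and 0.0108).

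The later steps were called for other subsets of the 6. From day 1 to day 2, 3 of the 6 were called higher (Foxp1, Tfe3, Flcn) and 1 lower (Rbpj), with 39.6% of all genes called, 18.7% higher and 20.9% lower. From day 2 to day 3, Tfe3 and Foxp1 were called lower, 2 of 6 with 26.7% of all genes called and 12.9% lower, and from day 3 to day 4, Zfp281, Foxp1 and Rbpj were, 3 of 6 with 27.7% called and 12.2% lower. Over the whole interval from day 0 to day 4, 2 members were higher (Foxp1, Flcn) and 1 lower (Rbpj), with 59.8% of all genes called, 29.8% higher and 30.0% lower, and the median log2 change of the 6 was 0.11 against -0.05.

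**Figure D2:**
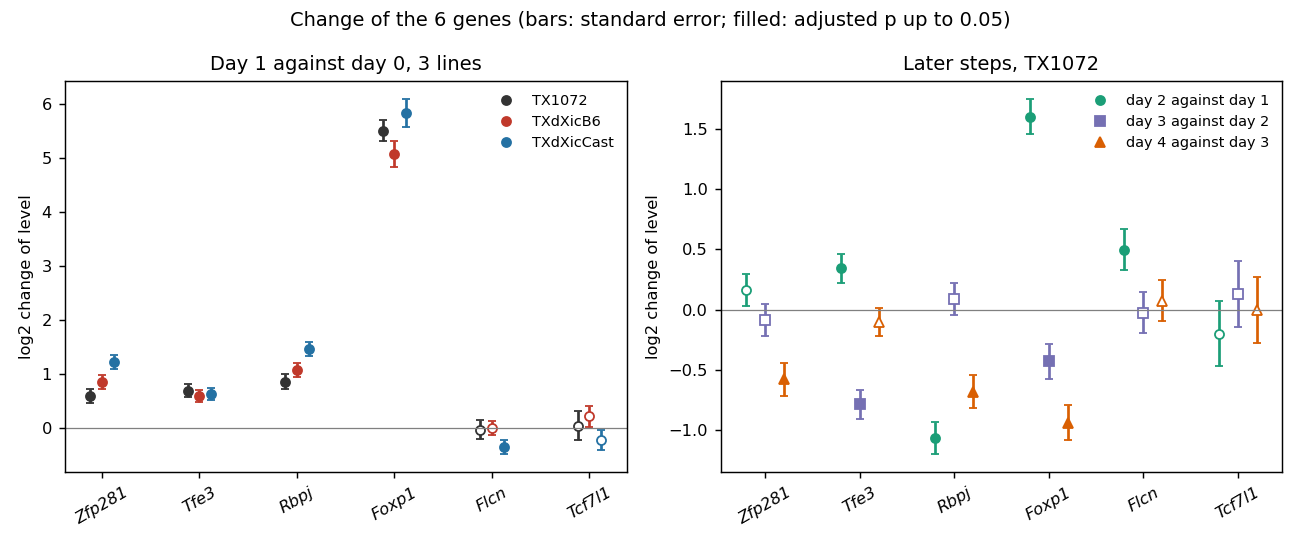
Log2 changes (vertical axis) of the 6 genes (horizontal axis) with bars of 1 SE, where filled points passed an adjusted p of 0.05. They are shown from day 0 to day 1 in the 3 lines and for the later steps in TX1072. Foxp1 lies above 5 in all 3 lines on day 1, and Rbpj, Tfe3 and Zfp281 lie between 0.59 and 1.46.

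Regulators of exit outside the group gave a mixed picture. Among 14 others, 2 were higher and 1 lower on day 1 (median log2 change -0.05), and 5 were higher and 6 lower on day 4 (median -0.26). Jarid2, a cofactor of Polycomb complex PRC2, rose on day 1 (log2 0.93, adjusted p = 6.04e-06) and was below day 0 on day 4 (log2 -0.92, adjusted p = 3.46e-06). Fgf4, the ligand whose ERK signal the other inhibitor of 2i blocks, was lower on day 4 (log2 -3.28, adjusted p = 1.79e-12), and Mapk3 and Fgfr1, the genes of ERK1 and of an Fgf receptor, were higher (log2 1.62 and 0.76, adjusted p = 3.34e-08 and 0.000424).

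The deletion lines were sequenced with another kit and on another instrument than TX1072 bulk RNA, and no test sets levels of one table against the other. Within them, the day-1 pattern was present again. In TXdXicB6, Foxp1, Rbpj, Zfp281 and Tfe3 were called higher on day 1, 4 of 6 with 45.7% of 19885 genes called and 24.2% higher. Foxp1 stood at 1.92, 1.99 and 0.97 CPM on day 0 and 53.0, 51.3 and 61.0 CPM on day 1 (log2 5.06 ± 0.24, adjusted p = 1.48e-15). Rbpj went from 224, 253 and 273 CPM to 510.2, 502.5 and 567 CPM (log2 1.07 ± 0.13, adjusted p = 1.03e-07). Neither gene had a day-0 library near its day-1 libraries. Zfp281 rose by 0.84 ± 0.12 and Tfe3 by 0.59 ± 0.12 on the log2 scale (adjusted p = 2.1e-06 and 0.000122), again without overlap.

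In TXdXicCast, 5 of 6 were called on day 1, the same 4 genes higher and Flcn lower, with 58.8% of all genes called, 29.3% higher and 29.6% lower. The RNA of its day-0 samples was degraded and was fragmented more mildly, so that this step cannot be told apart from a difference in library preparation. Rbpj stood at 165, 214 and 172 CPM on day 0 and 489, 496 and 528 CPM on day 1 (log2 1.46 ± 0.13, adjusted p = 3.05e-10), and Zfp281 at 75.1, 97.4 and 74.5 CPM and then 192, 192 and 189 CPM (log2 1.22 ± 0.12, adjusted p = 3.23e-09). Foxp1 rose by 5.83 ± 0.26 and Tfe3 by 0.62 ± 0.12 (adjusted p = 2.3e-16 and 4.12e-05). Flcn fell by 0.36 (adjusted p = 0.0248), a call lost without replicate 3 of day 0 or of day 1 (adjusted p = 0.133 and 0.1).

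From day 1 to day 4, which the preparation of day 0 does not touch, Rbpj fell by 1.34 in TXdXicB6 and by 1.47 in TXdXicCast on the log2 scale (adjusted p = 1.06e-09 and 1.76e-10) and Zfp281 by 0.52 and 0.51 (adjusted p = 0.000642 and 0.000738). Tfe3 fell by 0.39 in TXdXicCast (adjusted p = 0.00434) and by 0.29 in TXdXicB6 (adjusted p = 0.0316), the latter a call lost without day 1 replicate 1 (adjusted p = 0.135), without day 4 replicate 3 (adjusted p = 0.225) or with no filter on low counts (adjusted p = 0.0729). On day 2, between these days, Foxp1 stood at 206 to 246 CPM in TXdXicB6 and 174 to 207 CPM in TXdXicCast. Tfe3 stood at 296 to 344 and 308 to 346 CPM on that day. For both genes the day-2 libraries of each line were above those of its other days. Foxp1 was 1.98-fold higher on day 4 than on day 1 in TXdXicB6 (adjusted p = 5.47e-05) and gave log2 0.38 ± 0.19 in TXdXicCast (adjusted p = 0.0827). The latter passed with no filter on low counts (adjusted p = 0.0156) or without replicate 3 of day 1 or of day 4 (adjusted p = 0.0215 and 0.00864). In all, 4 of 6 were called in TXdXicB6, 1 higher and 3 lower, with 56.5% of all genes called, 27.8% higher and 28.7% lower. In TXdXicCast 3 of 6 were called, all lower, with 59.2% called and 28.8% lower. Tcf7l1 was called in neither line, with log2 -0.38 (adjusted p = 0.0877) and -0.28 (adjusted p = 0.199), but was called in both once the replicate number entered as a block, with log2 -0.38 (adjusted p = 0.00903) in TXdXicB6 and -0.30 (adjusted p = 0.0367) in TXdXicCast. It also passed in TXdXicB6 with no filter (adjusted p = 0.0151) or without day 1 replicate 3 or day 4 replicate 1 (adjusted p = 0.0296 and 0.0469), and in TXdXicCast without day 4 replicate 1 (adjusted p = 0.043).

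The direct test of a difference between the deletion lines in this change called none of the 6 at an adjusted p of 0.05, with 0.83% of all genes called by edgeR. The largest difference among them was for Foxp1, whose rise was smaller in TXdXicCast by 0.61 ± 0.26 on the log2 scale (log2 -0.61, adjusted p = 0.365), and it passed only with no filter on low counts (adjusted p = 0.0481). Over the whole interval in TXdXicB6, 3 of 6 were higher on day 4 than on day 0, with 59.3% of all genes called and 30.1% higher. Foxp1 was 66.1-fold higher (adjusted p = 1.34e-17), while the smaller rises of Zfp281 and Tfe3 (log2 0.32 and 0.30, adjusted p = 0.0244 and 0.0275) overlapped with day 0 and were each lost when any of 3 libraries was left out (Zfp281 without day 0 replicate 1 or day 4 replicate 1 or 2, adjusted p = 0.0916 to 0.194, and Tfe3 without day 0 replicate 3 or day 4 replicate 1 or 2, adjusted p = 0.129 to 0.155). Rbpj, with log2 -0.27 (adjusted p = 0.0722), passed without day 0 replicate 1 (adjusted p = 0.041).

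Per length of exon, Zfp281 led in TX1072 on day 0 with 25.2 ± 2.10 RPKM (SD, n = 3), followed by Tfe3 with 12.5 ± 1.27, Flcn with 10.5 ± 0.79, Rbpj with 10.4 ± 0.50, Tcf7l1 with 3.38 ± 1.33 and Foxp1 with 0.0898 ± 0.0098. The ranges of Tfe3, Flcn and Rbpj overlapped between neighbours and the others did not. On day 2 no neighbours overlapped, and the order was Zfp281 (42.2), Tfe3 (25.5), Flcn (14.4), Foxp1 (12.5), Rbpj (9.00) and Tcf7l1 (3.00). On day 4 Zfp281 (26.5) was followed by Flcn and Tfe3 (14.9 and 13.8, overlapping) and by Rbpj, Foxp1 and Tcf7l1 (5.98, 4.84 and 3.27, each overlapping with the next). In the deletion lines Tcf7l1 was first on day 0 with 34.6 ± 5.80 RPKM in TXdXicB6, and the line, the library kit and the strand setting of the counting cannot be told apart behind the gap to the 3.38 RPKM of TX1072.

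The single cells showed in how many cells these transcripts were found. They come from 1 culture per day, so no test was made between days, and intervals cover counting error only. By the labels, only the capture columns of day 1 had 2 sequencing runs each, 1 of them labelled RapidRun. The counts do not separate these runs, so that day 1 cannot be told apart from this difference in sequencing. Foxp1 gave 17 UMIs on day 0 in 5 of 277 cells (1.81%, 95% exact binomial interval 0.589 to 4.16). It was then found in 74.5% of cells on day 1, 97.1% on day 2, 86.4% on day 3 and 76.5% on day 4. After each cell was thinned to 40000 UMIs, the shares were 1.44, 65.2, 90.3, 78.2 and 58.8%. On day 0 the share lay within the interval of Gata4, an endoderm gene that stem cells should lack (0.722%, interval 0.0876 to 2.58), at the same median depth of 138565 UMIs per cell. The share of cells with Foxp1 on day 0 is thus not told apart from that of Gata4. Its summed level, given next, lay above the 0.0511 CPM of Gata4 (95% Poisson interval 0.00619 to 0.184).

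Summed over cells, Foxp1 was at 0.434 CPM (95% Poisson interval 0.253 to 0.695) on day 0, 107 CPM on day 1, 217 CPM on day 2, 152 CPM on day 3 and 76.3 CPM on day 4. Zfp281 ran from 143 over 231, 255 and 158 to 154 CPM, and Tfe3 from 75.3 over 148, 136 and 90.5 to 100.2 CPM. Rbpj had its maximum on day 1, with 126, 218, 100.1, 103 and 77.4 CPM on days 0 to 4. These 4 genes had their highest level on day 1 or 2, as in the bulk RNA, but their courses were not the same in detail. Tfe3 was highest on day 1 in the cells and on day 2 in TX1072 bulk RNA (means of 186 CPM on day 1 and 236 on day 2). Zfp281 was near its day-4 level by day 3 in the cells. Its bulk means were 196 CPM on day 3 and 131 CPM on day 4. Flcn lay at 24.6, 25.4, 46.5, 52.3 and 41.2 CPM and Tcf7l1 at 42.8, 51.5, 51.2, 76.0 and 44.5 CPM, both highest on day 3. Over the 10 capture columns of day 3, Flcn and Tcf7l1 gave 52.4 ± 8.71 and 76.2 ± 14.1 CPM (SD), and Zfp281, Tfe3 and Rbpj 158 ± 48.7, 91.3 ± 26.8 and 104 ± 22.9 CPM. On day 0 Flcn gave 25.1 ± 14.2 CPM.

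**Figure D3:**
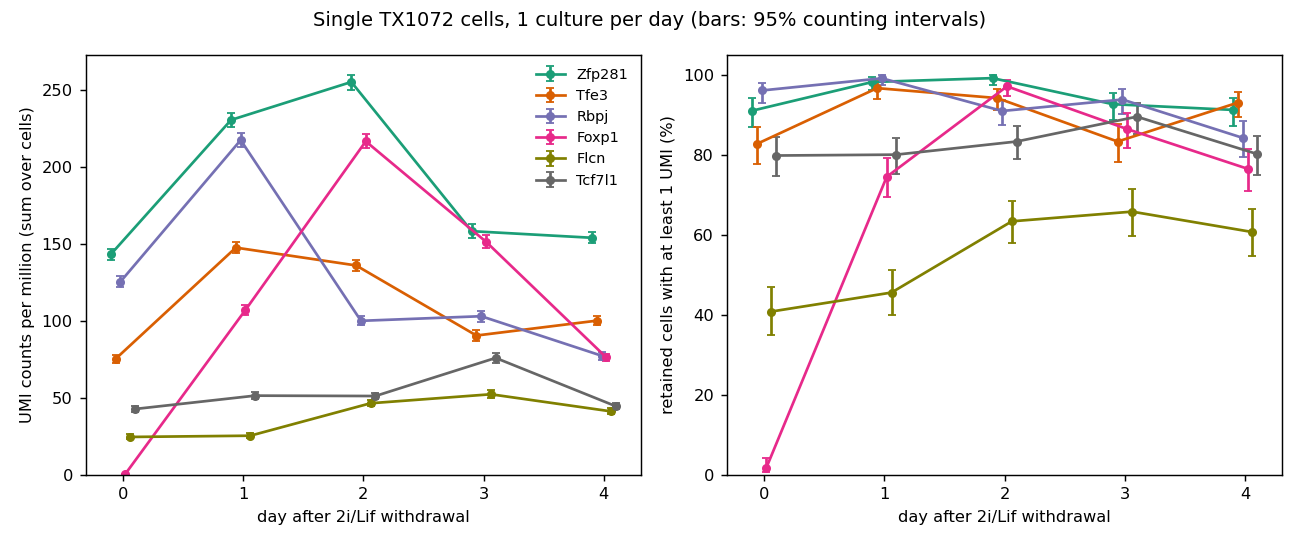
Summed level of each gene in single cells (CPM) and share of retained cells with at least 1 UMI (percent) by day, with 95% intervals for counting error. Foxp1 goes from 1.81% of cells on day 0 to 97.1% on day 2, while Zfp281, Rbpj, Tfe3 and Tcf7l1 are found in at least 79.8% of cells on every day.

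Tcf7l1 was found in 79.8 to 89.5% of cells per day, Zfp281 in 91.0 to 99.1%, Rbpj in 84.2 to 99.1%, Tfe3 in 82.7 to 96.6% and Flcn in 40.8 to 65.8%. Flcn went from 40.8% of cells on day 0 to 63.3% on day 2, or from 29.2 to 51.3% after thinning. All 6 transcripts were found together in 2 of 277 cells on day 0 (0.722%), in 29.2% of cells on day 1, in 46.9% on day 2, in 38.9% on day 3 and in 29.8% on day 4. On day 0 this share is bounded by that of Foxp1.

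Counts of reads over introns (unspliced) and exons (spliced) were deposited for 5 of the 6 genes, and Zfp281 had no row in those tables. Foxp1 stood out on day 0, when 321 of its 355 UMIs (90.4%, interval 86.9 to 93.3) were unspliced, against 10.7% over all genes. The spliced table held 34 UMIs of Foxp1 on that day where the total counts gave 17, so the tables do not match there and the share is uncertain. The share was 23.3% on day 1 and 16.4% on day 2. Unspliced UMIs of Foxp1 went from 321 to 1319 to 1746 over these 3 days, and spliced ones from 34 to 4329 to 8904. Rbpj went from 40.1% unspliced on day 0 to 24.8% on day 4, Tcf7l1 stayed between 47.2 and 61.2%, and Flcn between 1.31 and 3.40%. Tfe3 was between 0.204 and 0.459% on days 1 to 4 and was listed at 0 in both tables on day 0, when the total table held 2950 UMIs, so that no share is given for that day.

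Tfe3, as the X-linked member, could be followed on the active and the inactive X chromosome. X-chromosome inactivation (XCI) silences one X in each female cell as it differentiates, and some genes escape it. Allele-specific (AS) counts are reads that cover a position where B6 and Cast differ, and they made up 5.21 to 34.9% of the counts in the libraries of the deletion lines. In TXdXicB6, where the Cast X is silenced, Tfe3 went the way of its chromosome. Its B6 share was 53.2, 55.4 and 55.9% on day 0, 54.5, 55.3 and 51.8% on day 1, 60.9, 60.6 and 61.7% on day 2, 69.0, 64.4 and 69.5% on day 3 and 73.1, 73.5 and 73.2% on day 4. The day-4 libraries were all above those of every other day. The median X-linked gene moved from 51.1% on day 0 to 71.2% on day 4 in the same libraries.

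In TXdXicCast, where the B6 X is silenced, the B6 share of Tfe3 stayed between 49.1 and 56.2%. It was 56.2, 53.1 and 53.6% on day 0, 53.9, 49.8 and 52.2% on day 1, 53.2, 53.0 and 51.7% on day 2, 51.3, 49.1 and 51.6% on day 3 and 50.9, 51.3 and 52.4% on day 4. Day 1 overlapped with every other day, all day-2 libraries lay above all day-3 libraries, and all day-0 libraries were above all day-4 libraries by a small margin. The median X-linked gene in these libraries fell from 49.6% on day 0 to 38.0% on day 4. On day 4 the share of Tfe3 was above that of 91.2, 93.8 and 92.4% of 397, 340 and 367 X-linked genes, and in TXdXicB6 above that of 62.6, 59.3 and 52.8%. Tfe3 already ranked above the median gene on day 0. It was then above 75.9, 65.5 and 68.8% of X-linked genes in TXdXicCast, and above 67.5, 73.9 and 77.6% in TXdXicB6.

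**Figure D4:**
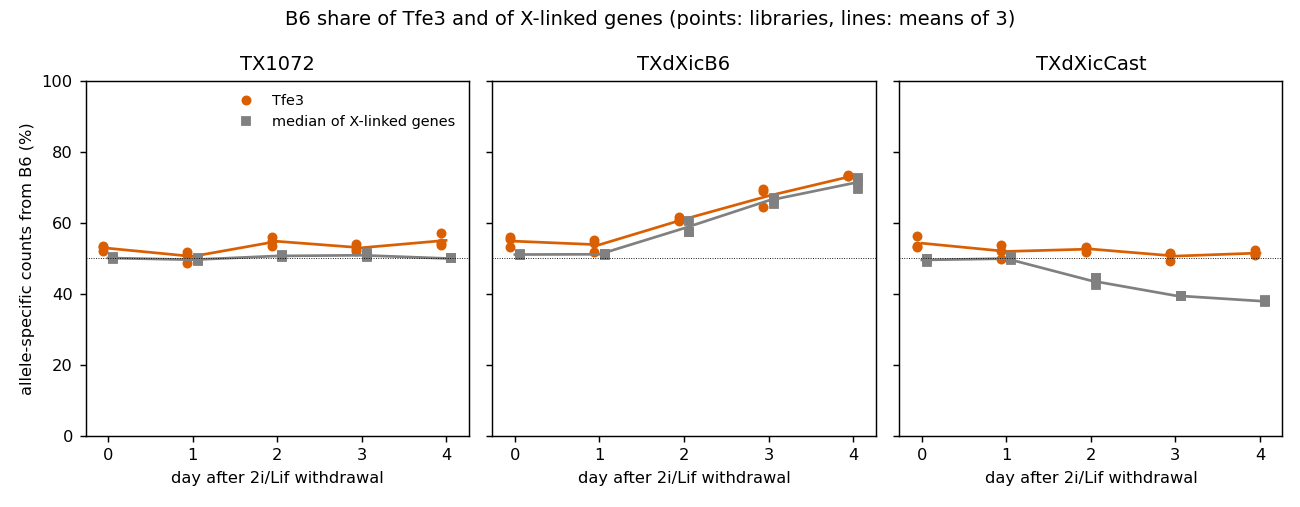
B6 share of the AS counts (vertical axis, percent) of Tfe3, one point per library, and of the median X-linked gene, by day (horizontal axis) and line. On day 4 in TXdXicB6, Tfe3 lies at 73.1 to 73.5% and the median gene at 69.7 to 72.5%. In TXdXicCast the median gene falls to 38.0% while Tfe3 stays between 50.9 and 52.4%.

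The change in mean share from day 0 to day 4 was 18.4 percentage points in TXdXicB6, -2.76 in TXdXicCast and 2.22 in TX1072, where either X can be silenced. Each gave p = 0.1 in a two-sided exact permutation test, the smallest that 3 against 3 libraries can give. TXdXicB6 day 0 replicate 1 rested on 203 AS counts of Tfe3, and without it the change was 17.6 points. The change was 1.18 points in TX1072 without day 4 replicate 3, and -1.80 in TXdXicCast without day 0 replicate 1 (p = 0.2 for both, exact permutation test). The day-0 libraries of TXdXicCast came from degraded RNA, so that its changes from day 0 cannot be told apart from a difference in preparation. From day 1 to day 4, which these libraries do not touch, the mean share went from 52.0 to 51.5% in TXdXicCast and from 53.9 to 73.3% in TXdXicB6. In the model across all genes, the log2 B6-to-Cast ratio of Tfe3 rose in TXdXicB6 by 1.14 ± 0.08 (SE, adjusted p = 7.99e-19), when 57.6% of 531 X-linked genes tested were called higher and their median was 1.20. In TXdXicCast the change was -0.15 ± 0.075 (adjusted p = 0.167), when 45.2% were called lower and the median was -0.68. In TX1072 it was 0.13 ± 0.09 (adjusted p = 0.396), when 11.2% of 475 were called.

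The ratio of inactive to active X, written Xi:Xa, was compared between the deletion lines directly. The Xi:Xa ratio of Tfe3 fell less in TXdXicCast than in TXdXicB6 by 0.995 ± 0.11 on the log2 scale (adjusted p = 2.05e-11), when 28.8% of the 531 X-linked genes were called in that direction, 4.33% in the other, and their median was 0.48. Every alternative tried kept this value between 0.968 and 1.034, each with at least 2 of the 3 day-0 libraries of TXdXicCast. On day 4, B6 and Cast counts of Tfe3 were thus near equal in the line that silences the B6 X, and B6 counts prevailed in the line that silences the Cast X. Since each line is 1 clone, the allele and the clone cannot be told apart in these libraries.

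Within the single TX1072 line, cells can be sorted by the allele that expresses Xist, and those with more than 5 allelic Xist UMIs were classed. On day 4, 43 cells had Xist UMIs from Cast only, and Tfe3 gave 91 B6 and 1 Cast UMIs in them, a B6 share of 98.9% (95% exact binomial interval 94.1 to 100.0). The other X-linked genes together gave 91.3% in these cells. Another 79 cells had Xist UMIs from B6 only, and Tfe3 gave 79 B6 and 79 Cast UMIs in them, or 50.0% (interval 42.0 to 58.1), when the other X-linked genes gave 19.0%. Among 39 cells of the latter class with AS Tfe3 UMIs, 7 had B6 UMIs only, 21 had Cast only and 11 had both, whereas among 22 of the former, 21 had B6 only and 1 had both. Leaving out any of the 10 capture columns kept the shares at 98.6 to 100.0% and at 44.0 to 55.7%, a check added after the data were seen.

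**Figure D5:**
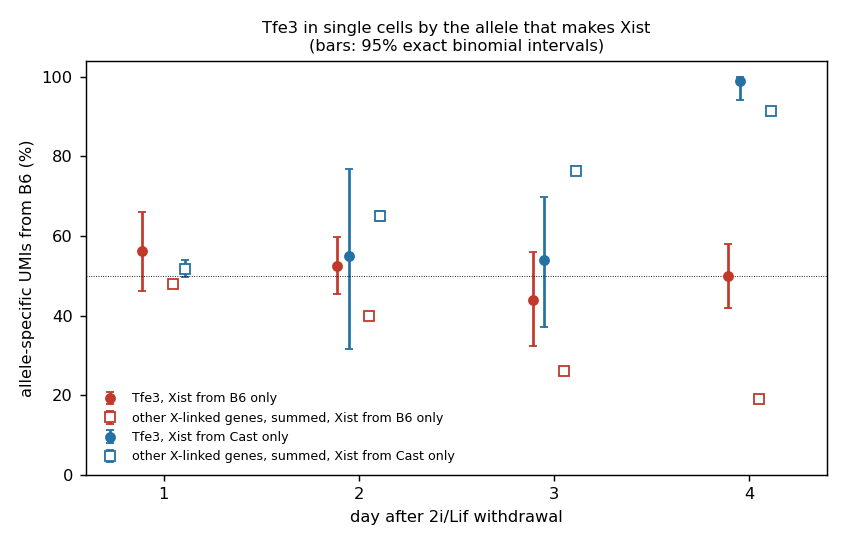
B6 share of AS UMIs (vertical axis, percent, with 95% exact binomial intervals) of Tfe3 and of all other X-linked genes summed, in TX1072 cells with Xist from B6 only or Cast only, by day (horizontal axis). With Xist from B6 the summed genes fall to 19.0% by day 4 and Tfe3 lies between 43.8 and 56.3% on days 1 to 4, and with Xist from Cast both are above 90% on day 4.

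On the days before, the share of Tfe3 in cells with Xist from B6 only was 56.3% on day 1, 52.5% on day 2 and 43.8% on day 3 (interval 32.2 to 56.0), when the other genes gave 47.9, 39.8 and 26.0%. With Xist from Cast only it was 90.9% on day 1 from 11 AS UMIs in 5 cells (interval 58.7 to 99.8), when the others gave 51.8%. It was 55.0% on day 2 and 53.8% on day 3, from 20 and 39 AS UMIs (intervals 31.5 to 76.9 and 37.2 to 69.9), when the others gave 65.1 and 76.4%. Over all cells of a day the B6 share of Tfe3 was 65.3, 57.9, 53.3, 58.3 and 64.1% on days 0 to 4. On day 0 this exceeds the 53.1, 52.0 and 53.5% of the TX1072 bulk libraries, of which replicate 1 came from the same population as the cells, so the share of 50.0% on day 4 lies below the level before XCI as the cells report it. The cause of the gap between cells and bulk was not tested.

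Of the autosomal members, Rbpj was called for a change between alleles, but its B6 share went up and down over the days. It was 43.6 ± 1.18% (SD, n = 3) on day 0 and 49.5 ± 3.62% on day 4 in TX1072, 41.2 ± 1.53% and 44.7 ± 2.20% in TXdXicB6, and 38.5 ± 0.40% and 46.3 ± 0.65% in TXdXicCast. On day 1 it had stood at 49.8, 47.4 and 47.3% in TX1072, TXdXicB6 and TXdXicCast, and on day 2 at 42.1, 42.1 and 39.2%. In the single cells it was 44.6% on day 0, 44.3% on day 2, 51.6% on day 3 and 45.1% on day 4, and on day 1 Rbpj gave 372 B6 and 248 Cast UMIs. The intervals of days 0 and 4 overlapped there (39.5 to 49.8 and 39.0 to 51.3). In TX1072 and TXdXicCast bulk RNA all day-4 libraries were above all day-0 libraries, and in TXdXicB6 they overlapped. From day 0 to day 4 the log2 B6-to-Cast ratio rose by 0.46 ± 0.08 in TXdXicCast (adjusted p = 4.44e-06), with 21.6% of 15280 genes called and 10.1% higher, a change from the day-0 libraries of degraded RNA, and by 0.25 ± 0.08 in TXdXicB6 (adjusted p = 0.0234), with 16.3% called and 9.03% higher. The latter call was lost without day 0 replicate 2 or 3 or day 4 replicate 1 or 2 (adjusted p = 0.0573 to 0.201). In TX1072 the change was 0.33 ± 0.12 (adjusted p = 0.0657, and 0.022 without day 4 replicate 3), with 15.0% of 13510 genes called. Tcf7l1, Zfp281, Foxp1 and Flcn were not called in any line, although Flcn passed in TXdXicCast without day 0 replicate 1 (log2 -0.30, adjusted p = 0.0217). Foxp1 had at most 16 AS counts per library on day 0.

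Each member had other genes whose level ran alongside its own over the libraries, given here as a description. Over the 15 TX1072 libraries, the correlation of log2 CPM was 0.992 between Foxp1 and Rassf9, which remained 0.975 over the 30 deletion-line libraries, and 0.989 between Foxp1 and both Snrpn and Slc23a1 (0.96 and 0.975). For Zfp281 the closest were Sycp1 (0.987 and 0.932), Gm14124 (0.952 and 0.828) and Rad18 (0.95 and 0.895), and for Rbpj, besides its pseudogene, Wnk3 (0.949 and 0.918) and Pura (0.945 and 0.806). Tfe3 ran with Ptpa (0.949), Brd2 (0.945) and Rpusd4 (0.944), but over the deletion lines these were 0.367, 0.404 and 0.593. Flcn with Pgm1, Snx30 and 2410131K14Rik (0.897, 0.885 and 0.879) dropped likewise to 0.348, 0.485 and 0.606. Tcf7l1 ran with Setd1a, Ccdc92 and Cherp (0.934, 0.881 and 0.872, then 0.706, 0.732 and 0.785). All points of a day share its culture conditions, so that any pair of genes with like time courses gives a high value.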

How the data were processed

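The authors aligned reads with STAR 2.5.2b to GRCm38 (mm10) with strain SNPs masked. They counted bulk reads per gene with featureCounts of the Rsubread package and UMIs with the Drop-seq pipeline. The strand setting of featureCounts is not given in the sources used here. They deposited raw counts per gene for bulk RNA, total and per allele, and UMI counts per gene and cell. TX1072 bulk libraries used a TruSeq Stranded Total RNA kit and the deletion lines a KAPA HyperPrep kit with RiboErase. Groups were taken from the labels.

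Counts were tested with edgeR 4.0.16 (quasi-likelihood, TMM factors from autosomal genes, Benjamini-Hochberg adjustment over all genes tested) in R 4.3.3, separately for the TX1072 and the deletion-line tables, with DESeq2 1.42.0 as an alternative. CPM used the same factors, and RPKM the union of GENCODE M21 exons. Allelic ratios were tested on both alleles' counts of each library in one model. Shares and exact tests used Python 3.11.15 and scipy 1.17.1. The code was tested on simulated counts. Spike-in rows were left out and held 0.29% of single-cell UMIs. Retained cells were those in the study's supplementary cell list, and doublets were not called again. Intervals cover counting error only.

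Replicates of a line were differentiated on different days, so that the numbers pair the samples. Deviations from group means correlated with a median of 0.215 between libraries of the same number in TX1072 (other numbers, -0.125). The median was 0.329 in the deletion lines (other numbers, -0.233). Neither the reported edgeR tests nor the exact permutation tests used this pairing, and the replicate block was run for edgeR as an alternative only.

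The members and gene lists were chosen with earlier results of these data known. Named genes were, per list, up to 2 with the largest called rise and 2 with the largest called fall from day 0 to day 4 in TX1072, and per member the 3 genes of most like profile. Genes outside this rule were chosen after their values were seen. The study's spliced and unspliced AS tables were not used. The alternatives tried were other scaling factors, no filter on low counts, DESeq2, the replicate block and leaving out each library in turn.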

Additional observations from a re-analysis of the deposited data

Results flagged for a closer look

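The fall in the Xi:Xa ratio of Tfe3 from day 0 to day 4 differed between the deletion lines by 0.995 on the log2 scale (adjusted p = 2.05e-11, edgeR), smaller where the B6 X was silenced. It was singled out because the same contrast gave different values in the 2 lines by a test of the difference itself. Alternatives kept it between 0.968 and 1.034, the day-0 libraries of TXdXicCast came from degraded RNA, and the clone and the silenced allele cannot be told apart between these lines. Among 30 groups of 10 capture columns, 1 for each gene and day, the check for outliers flagged no column. Columns of a group could still spread widely, as for Rbpj on day 4 (32.5 to 102.4 CPM) and Foxp1 on day 1 (84.9 to 163 CPM).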

How the results depend on the processing

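Counts of genes called in each comparison stayed within 1.5 times their reported value under other scaling factors, no filter on low counts, DESeq2, the replicate block and with any library left out, with 2 exceptions. The allelic ratio in TX1072 called 2020 genes by edgeR and 1342 by DESeq2. The difference between deletion lines in the change from day 1 to day 4 called 165 genes, and 418 with no filter, 358 by DESeq2, 298 with the replicate block and 24 to 229 with a library left out. Some member values near 0 that passed no test changed sign. With TMM from all genes, Tcf7l1 in TX1072 gave -0.007 (day 1 against 0) and 0.005 (day 4 against 3), and with no filter 0.028 (day 4 against 3) and 0.011 (day 4 against 0). The line difference of Zfp281 gave -0.002 with DESeq2 size factors, -0.023 with TMM from all genes, -0.012 with no filter and -0.003 by DESeq2, and the allelic ratio of Tcf7l1 in TXdXicB6 0.006 by DESeq2.

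With a library left out, the log2 change of Tcf7l1 in TX1072 ranged from -0.24 to 0.337 (day 1 against 0), -0.355 to 0.051 (day 2 against 1), -0.08 to 0.314 (day 3 against 2), -0.283 to 0.179 (day 4 against 3) and -0.319 to 0.29 (day 4 against 0). Flcn in TX1072 ranged from -0.157 to 0.061 (day 1 against 0), -0.315 to 0.159 (day 3 against 2) and -0.104 to 0.371 (day 4 against 3), in TXdXicB6 from -0.098 to 0.096 (day 1 against 0) and in TXdXicCast from -0.085 to 0.212 (day 4 against 1). Rbpj ranged from -0.028 to 0.181 (day 3 against 2) and Zfp281 from -0.029 to 0.138 (day 4 against 0). Line differences from day 1 to day 4 ranged from -0.106 to 0.233 for Tcf7l1, -0.088 to 0.067 for Zfp281, -0.314 to 0.028 for Rbpj and -0.187 to 0.102 for Flcn. Allelic ratios ranged from -0.448 to 0.022 for Foxp1 and -0.004 to 0.109 for Flcn in TX1072, -0.064 to 0.105 for Tcf7l1 in TXdXicB6 and -0.275 to 0.545 for Foxp1 in TXdXicCast. The cause of these changes was not tested. The replicate block changed the 2 calls of Tcf7l1 given above. In the single cells 4 of 6 members were highest on day 1 or 2 under the alternatives run, while after thinning Tcf7l1 was lower on day 4 than on day 0 (43.7 and 44.5 CPM) and without it higher (44.5 and 42.8 CPM). Low counts limit Foxp1 on day 0, and AS counts limit its alleles.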
